A study of Capra hircus with 198 samples.

Results

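The hippocampus was compared with the frontal neocortex of the same 6 goats. The 6 hippocampus and 6 frontal neocortex libraries were taken by the tissue named in their titles, and they make up 12 of the 198 libraries of an atlas of 33 goat tissues. The goats were adult females of the Murciano-Granadina breed, a dairy goat, and each gave 1 library of each tissue. The lactating animals were goats 2, 3 and 6, and the dry ones goats 54, 64 and 73. Both states were pooled here, with the goat as a block in the fit, so that each hippocampus was set against the neocortex of its own animal. Total RNA was extracted from pieces of whole tissue and made into strand-specific libraries. The labels give no age beyond adult, no side of the brain and no boundary of the dissected piece.

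The hippocampus is a fold of old cortex at the medial edge of the hemisphere, known for its part in memory and in the sense of place. Its principal neurons are the granule cells of the dentate gyrus and the pyramidal cells of the cornu ammonis fields, the pyramidal cells lying in a single sheet. The frontal neocortex is a layered sheet in which upper layer neurons connect cortical areas and deep layer neurons project to the thalamus, brainstem and spinal cord. The neurons of both regions are mostly glutamatergic, with GABA neurons among them, and they lie beside astrocytes, oligodendrocytes and microglia. The roles given below for single genes are background, known mainly from mice and rats.

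Hippocampus libraries held between 1.31 and 4.66 M counts (median 1.64 M) and neocortex libraries between 4.40 and 6.38 M counts (median 4.90 M). Long noncoding RNAs (lncRNAs) took between 85.5 and 87.6% of the counts in hippocampus and between 85.8 and 90.0% in neocortex, so that protein-coding genes shared the remaining minor part. The 13 mitochondrially encoded protein genes took between 0.396 and 0.480% of the counts in hippocampus and between 0.174 and 0.658% in neocortex. A floor of 3 counts stood at 0.643 to 2.29 CPM (the count scaled to its library total) in hippocampus and at 0.471 to 0.682 CPM in neocortex, which covers counting error only. Each library was also set against the mean profile of every tissue, with its own goat left out, by Spearman correlation. Of the 6 hippocampus libraries, 5 lay closest to hippocampus, and of the 6 neocortex libraries, 4 lay closest to neocortex.

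Of the remaining libraries, 2 stood apart on marker and quality lists. The library labelled neocortex of goat 2 lay closest to pineal gland (rho 0.858, against 0.811 for neocortex). It held 2.60 CPM of SNAP25, a synaptic vesicle fusion protein of all neurons, where the other neocortex libraries held at least 76.1 CPM, and it held 1.3 CPM of the astrocyte filament gene GFAP. Its summed level of 10 excitatory neuron markers was 9.75 CPM, against 81.1 to 240 CPM in the other neocortex libraries. Its astrocyte sum was 34.2 CPM, against 167 to 617 CPM, its heat shock sum 23.8 CPM, against 197 to 608 CPM, and its coding share of 8.57% was the lowest of the 12 libraries. The library labelled hippocampus of goat 3 lay closest to medulla oblongata (rho 0.887, against 0.863 for hippocampus). Its excitatory neuron sum was 21.5 CPM, against 96.8 to 231 CPM in the other hippocampus libraries. Its sum of myelin genes was 1214 CPM, against 192 to 706 CPM, and its heat shock sum 185 CPM, against 293 to 420 CPM. The part of RNA quality in the results was not tested. The neocortex of goat 3 lay slightly closer to rhinencephalon than to neocortex (rho 0.844 and 0.837), with neuronal markers present. Results are therefore given over all 6 goats and again over the 4 goats 6, 54, 64 and 73, an alternative chosen after these values were seen. In bulk tissue, fewer cells of a type and less RNA per cell cannot be told apart.

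**Figure D1:**
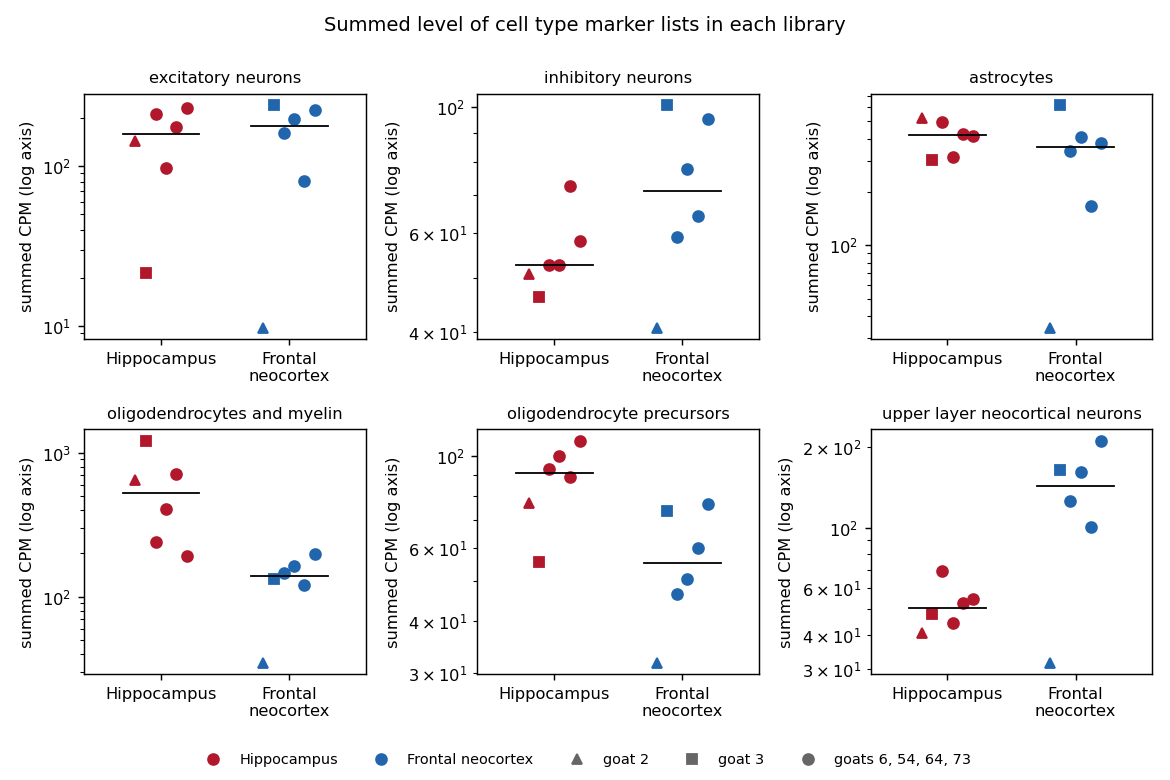
Summed CPM of 6 marker lists in each library (log axis), with hippocampus in red at the left, frontal neocortex in blue at the right, a line at the median of 6 goats, triangles for goat 2 and squares for goat 3. The neocortex of goat 2 is the lowest neocortex library in all 6 panels, and the hippocampus of goat 3 holds the lowest excitatory sum (21.5 CPM) and the highest myelin sum (1214 CPM) among the hippocampus libraries.

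Over all 6 goats, 184 of 17229 features tested differed between the tissues, which is 1.07% (edgeR quasi-likelihood test, adjusted p under 0.05, here named a call). Of these, 39 (0.226%) were higher and 145 (0.842%) were lower in hippocampus. The higher features were 16 coding genes and 23 lncRNAs, and the lower ones were 43 coding genes, 98 lncRNAs and 4 other features. Without any scaling beyond the library total the split was 61 higher and 100 lower. Without goats 2 and 3, 585 of 17944 features were called (3.26%), with 238 higher (1.33%) and 347 lower (1.93%) in hippocampus, and with the library total alone 366 higher and 257 lower. Of the 184 calls over 6 goats, 183 were also called over 4 goats with the same direction, which is 99.5% of the calls over 6 goats and 31.3% of the calls over 4 goats. The median log2 fold change of all features was 0.016 over 6 goats and -0.008 over 4 goats. Scaling by library total alone moved the medians to 0.228 and 0.120, and under that scaling WFS1, which was not called, changed sign over 6 goats.

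A small number of genes known from hippocampal neurons were called higher in hippocampus once goats 2 and 3 were left out, while most listed markers were not. HPCA (hippocalcin, a neuronal calcium sensor named for the hippocampus), CPNE7 and CPNE6 (copines, calcium-dependent membrane-binding proteins), RGS14 (a brake on plasticity in the CA2 field), ZBTB20 (a transcription factor required for hippocampal neuron identity), GRIA1 (an AMPA glutamate receptor subunit) and NPTX1 (a pentraxin that clusters AMPA receptors) rose over 4 goats. CPNE6 and NPTX1 were chosen after their values were seen. Of the 15 markers listed for the cornu ammonis fields, 5 were tested, and CPNE7 and RGS14 were called higher over 4 goats, with a list median of 0.53. CPNE4 and WFS1 of that list lay below 0, at -2.32 and -0.42, and were not called. None of 4 dentate granule cell markers and 1 of 6 patterning factors were called. None of these genes was called over 6 goats, where the cornu ammonis list had a median of 0.48. Scaled by the library total only, 1 cornu ammonis marker was called higher over 6 goats. With lncRNA features left out, 4 cornu ammonis markers were tested over 4 goats, 1 was called higher and the median was 0.02.

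HPCA ran from 3.76 to 25.2 CPM in hippocampus (median 14.4) and from 0 to 2.86 CPM in neocortex (median 1.63). The tissues did not overlap, as was so for 1.56% of all features tested over 6 goats with hippocampus higher and for 0.958% with it lower, and even the hippocampus of goat 3 held more than the highest neocortex. Its log2 fold change was 3.40 ± 0.52 (SE) over 4 goats, with an adjusted p of 0.000404. Over 6 goats it was 3.27 ± 0.76, with an adjusted p of 0.0821. HPCA overlaps TMEM54 in the RefSeq annotation, and reads of the 2 genes cannot be told apart with certainty. CPNE7 ran from 3.76 to 33.0 CPM in hippocampus (median 15.4) and from 0 to 4.0 CPM in neocortex (median 1.66). The hippocampus of goat 3 alone fell within the neocortex range. The log2 fold change of CPNE7 was 3.30 ± 0.47 over 4 goats (adjusted p 0.000182) and 3.19 ± 0.70 over 6 goats (adjusted p 0.0638).

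RGS14 ran from 0 to 9.99 CPM in hippocampus (median 3.96) and from 0 to 2.51 CPM in neocortex (median 0.0953). It was detected in 5 of 6 hippocampus libraries, all but that of goat 3, and its only neocortex value above 1 CPM was in goat 3. It was called over 4 goats (log2 fold change 4.74 ± 1.02, adjusted p 0.00971), a call that was lost without goat 6 or goat 73. ZBTB20 ran from 5.38 to 25.2 CPM in hippocampus (median 16.7) and from 0 to 7.10 CPM in neocortex (median 4.74). Over 4 goats its values did not overlap, as was so for 5.73% of all features with hippocampus higher and 3.03% with it lower, at 20.4 ± 4.36 and 5.10 ± 1.62 CPM (SD, n = 4 each), and its log2 fold change was 1.87 ± 0.36 (adjusted p 0.00367).

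GRIA1 ran from 7.53 to 72.2 CPM in hippocampus (median 60.5) and from 0 to 41.1 CPM in neocortex (median 19.0). In 5 hippocampus libraries it lay between 56.1 and 72.2 CPM, above every neocortex, and the hippocampus of goat 3 held the lowest value of that tissue. Its log2 fold change over 4 goats was 1.57 ± 0.24 (adjusted p 0.000415). Of the 14 ionotropic glutamate receptor subunits tested over 4 goats, GRIA1 was the only call, and the list median was -0.25. NPTX1, chosen after its values were seen, ran from 3.76 to 45.7 CPM in hippocampus (median 28.4) and from 1.3 to 10.9 CPM in neocortex (median 9.22), with a log2 fold change of 1.73 ± 0.28 over 4 goats (adjusted p 0.000621). CPNE6, chosen in the same way, ran from 0.538 to 22.3 CPM in hippocampus (median 15.9) and from 0.433 to 7.06 CPM in neocortex (median 3.79), with a log2 fold change of 2.38 ± 0.46 (adjusted p 0.00416). The CPNE6 call was lost without goat 73. TMEM54 (a membrane protein whose gene overlaps HPCA), ZMAT5 (a zinc finger protein) and PQLC1 also rose over 4 goats, with log2 fold changes of 3.0, 3.47 and 3.36. None of them was called over 6 goats, where the hippocampus of goat 3 held 2.15, 1.61 and 1.61 CPM of them.

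Other hippocampal landmarks did not pass the test in either fit with TMM scaling and all features. Among dentate granule cell markers, C1QL3 had a log2 fold change of 1.48 over 4 goats (adjusted p 0.0598). In that fit 1 dentate marker was called higher with the library total only, and 1 with lncRNA features left out. PROX1, the transcription factor of dentate granule cells, ran from 3.07 to 7.29 CPM in hippocampus (median 4.78) and from 0.217 to 3.43 CPM in neocortex (median 1.27), and its log2 fold change was 1.58 ± 0.65 over 4 goats (adjusted p 0.276) and 1.80 ± 0.58 over 6 (adjusted p 0.246). Every goat had more PROX1 in its hippocampus than in its neocortex. NR3C2, the mineralocorticoid receptor that is abundant in hippocampal neurons, had a log2 fold change of 1.3 ± 0.47 over 4 goats (adjusted p 0.182). WFS1, a marker of the CA1 field in mice, had medians of 8.91 CPM in hippocampus and 8.28 CPM in neocortex and a log2 fold change of -0.42 ± 0.44 over 4 goats (adjusted p 0.799). GRIK4, a kainate receptor subunit of the CA3 field, stayed below the filter on low counts, with at most 3.06 CPM in hippocampus and 1.10 CPM in neocortex. Of the 13 patterning factors listed for hippocampal development, 6 were tested and ZBTB20 alone was called, over 4 goats. In that fit 3 of the 6 lay below 0, with NR2F1 at -1.28 and LEF1 at -1.22, and the list median was -0.018. Over 6 goats 4 lay below 0, with a median of -0.43.

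**Figure D2:**
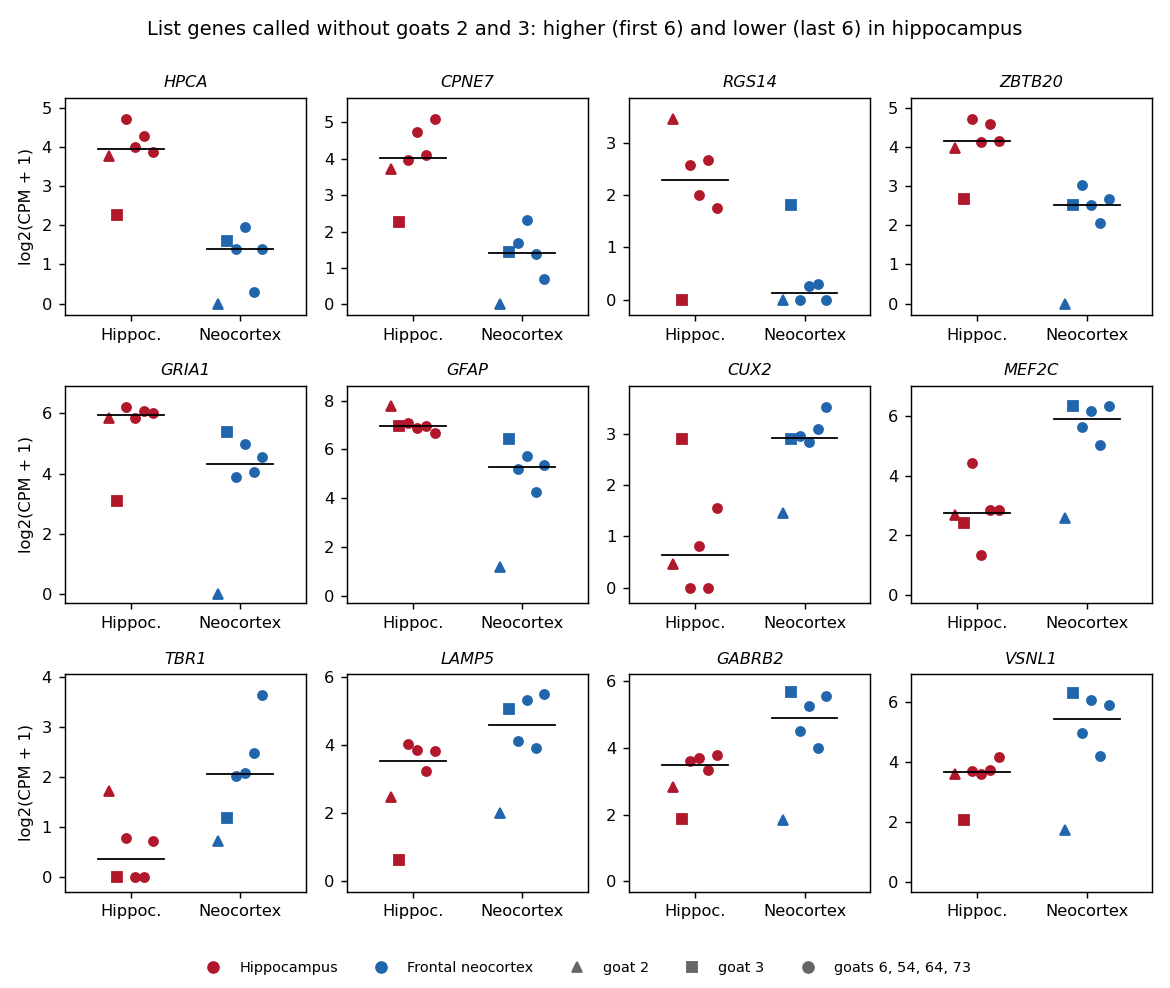
Level of 12 list genes in each library as log2(CPM + 1), with hippocampus in red at the left and frontal neocortex in blue at the right of each panel, a line at the median of 6 goats, triangles for goat 2 and squares for goat 3. HPCA to GFAP sit higher in hippocampus and CUX2 to VSNL1 sit lower, and the neocortex of goat 2 and the hippocampus of goat 3 often lie away from their groups.

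Markers of upper layer neocortical neurons were lower in hippocampus. Of the 13 on this list, 11 were tested, and 9 lay below 0 in both fits, with medians of -1.01 over 6 goats and -1.39 over 4 goats. Over 4 goats CUX2, MEF2C, RASGRF2 and LAMP5 fell, and none of the list rose. Over 6 goats none was called. Of all features, 8357 of 17229 lay below 0 over 6 goats and 9112 of 17944 over 4 goats, where 1.93% were called lower. The summed level of the list was 44.3 to 69.5 CPM in the hippocampus of goats 6, 54, 64 and 73 and 101 to 212 CPM in their neocortex, with no overlap, while the neocortex of goat 2 held 31.4 CPM.

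CUX2, a homeodomain factor of upper layer neurons, ran from 0 to 6.45 CPM in hippocampus (median 0.567) and from 1.73 to 10.5 CPM in neocortex (median 6.56). The value of 6.45 CPM belonged to the hippocampus of goat 3, and the other 5 hippocampus libraries held at most 1.93 CPM. The log2 fold change was -3.42 ± 0.71 over 4 goats (adjusted p 0.00736) and -2.66 ± 0.71 over 6 (adjusted p 0.145). MEF2C, an activity-regulated transcription factor of cortical neurons, ran from 1.5 to 20.3 CPM in hippocampus (median 5.75) and from 4.98 to 80.9 CPM in neocortex (median 59.5). Only the neocortex of goat 2 fell within the hippocampus range. Its log2 fold change was -3.03 ± 0.40 over 4 goats (adjusted p 7.77e-05) and -2.92 ± 0.62 over 6 (adjusted p 0.0577).

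RASGRF2, an exchange factor for Ras found in upper layers, had a log2 fold change of -1.57 ± 0.32 over 4 goats (adjusted p 0.00566), and LAMP5, a membrane protein of upper layer and some GABA neurons, one of -1.22 ± 0.31 (adjusted p 0.0305). Leaving out goat 6 ended the RASGRF2 call, and leaving out goat 54 or 73, or scaling by the library total only (adjusted p 0.0628), ended that of LAMP5. RORB, a nuclear receptor of layer 4 neurons, had medians of 1.95 CPM in hippocampus and 3.47 CPM in neocortex and was not called.

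Among deep layer markers TBR1 was the only call. TBR1, a T-box factor that specifies neurons projecting to the thalamus, ran from 0 to 2.31 CPM in hippocampus (median 0.322) and from 0.65 to 11.5 CPM in neocortex (median 3.14). Over 4 goats hippocampus held at most 0.702 CPM and neocortex at least 3.04 CPM, and the log2 fold change was -4.02 ± 0.88 (adjusted p 0.0112), a call lost without goat 73. It was not tested over 6 goats, where it stayed below the filter on low counts. The 9 deep layer markers tested over 4 goats had a median of -0.13. FEZF2, the factor of neurons projecting to the spinal cord, was at most 3.82 CPM in hippocampus and 2.86 CPM in neocortex and was not tested.

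Of 15 neuronal calcium sensors and binding proteins tested over 4 goats, CABP1 and VSNL1 fell and HPCA rose, so the class moved in both directions. CABP1, which regulates calcium channels, had a log2 fold change of -2.44 ± 0.48 (adjusted p 0.00509), and VSNL1 (visinin-like protein), one of -1.72 ± 0.30 (adjusted p 0.00147). VSNL1 ran from 3.23 to 16.9 CPM in hippocampus (median 11.6) and from 2.38 to 77.5 CPM in neocortex (median 44.4), and every neocortex but that of goat 2 lay above the highest hippocampus. The CABP1 call was lost without goat 73. CCK, the neuropeptide cholecystokinin, ran from 0 to 4.72 CPM in hippocampus (median 2.75) and from 2.60 to 30.6 CPM in neocortex (median 12.8), and fell over 4 goats (log2 fold change -2.27 ± 0.44, adjusted p 0.00404), though not without goat 54. It was the only call among 4 neuropeptide genes tested, all of them below 0.

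GABRB2, a subunit of fast inhibitory GABA receptors, fell over 4 goats. It ran from 2.69 to 12.7 CPM in hippocampus (median 10.2) and from 2.60 to 49.4 CPM in neocortex (median 29.4), with a log2 fold change of -1.48 ± 0.29 (adjusted p 0.00427), and the call was lost without goat 73. The 10 GABA receptor subunits tested had a median of 0.014, with 5 above and 5 below 0.

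Of 32 potassium and HCN channel genes tested over 6 goats, 27 lay below 0, with a median of -0.73. KCNF1, a silent subunit that modifies other potassium channels, was called. Of all features, 8357 of 17229 lay below 0 over 6 goats and 9112 of 17944 over 4 goats. In these fits 0.842 and 1.93% were called lower. With scaling by library total alone, 22 of the 32 channel genes lay below 0 over 6 goats, at a median of -0.52, and none was called. Under that scaling 5327 of 17229 features lay below 0. KCNF1 ran from 0.768 to 7.53 CPM in hippocampus (median 2.82) and from 8.19 to 18.9 CPM in neocortex (median 11.5). The tissues did not overlap, as was so for 0.958% of all features with hippocampus lower. The log2 fold change of KCNF1 over 6 goats was -2.31 ± 0.46 (adjusted p 0.0413). That call was lost without any 1 of goats 2, 6, 54, 64 and 73. Over 4 goats 28 of 35 lay below 0, at a median of -0.47, and KCNJ4, an inward rectifier, was called beside KCNF1 (log2 fold change -2.59 ± 0.53, adjusted p 0.00652), and leaving out goat 6 or 73 ended both calls.

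HOMER1, a scaffold of metabotropic glutamate receptors that has an activity-induced short form, was the only other list gene called over 6 goats, at an adjusted p that passed 0.05 neither with the library total only (0.0811) nor with DESeq2 size factors (0.0602). It ran from 7.64 to 22.7 CPM in hippocampus (median 11.7) and from 9.53 to 63.0 CPM in neocortex (median 44.7). Only the neocortex of goat 2 fell within the hippocampus range. This gave a log2 fold change of -1.67 ± 0.35 over 6 goats (adjusted p 0.0493) and -1.77 ± 0.25 over 4 (adjusted p 0.00014), and the call over 6 goats was lost when goat 3, 6, 54, 64 or 73 was left out. CAMK4, a nuclear calcium-dependent kinase, was the only call among 24 plasticity kinases and phosphatases over 4 goats (log2 fold change -1.37 ± 0.36, adjusted p 0.0381), and it was lost without goat 6, 54 or 73. With the library total only, CAMK4 was not called (adjusted p 0.0623), and 1 other member of the list was called higher.

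Among receptors that guide axons, EPHB6 fell and EPHA4 and PLXNA4 rose over 4 goats. They were the only calls among 7 Eph receptors and ephrins and 27 axon guidance and cadherin genes tested. Of all features, 1.33% were called higher and 1.93% lower in that fit. EPHB6, an Eph receptor without kinase activity, was detected in 1 of 6 hippocampus libraries, at 0.214 CPM, and ran from 0 to 8.83 CPM in neocortex (median 2.46). Its log2 fold change was -5.42 ± 1.14 (adjusted p 0.00809), and the call was lost without goat 73. In the hippocampus of goats 6, 54 and 64 the floor of 3 counts stood at 2.10, 2.25 and 2.29 CPM. Their neocortex held 2.44, 2.48 and 2.27 CPM of EPHB6, so non-detection in each of these hippocampus libraries says little. EPHA4, an Eph receptor of excitatory neurons and astrocytes, had medians of 34.4 CPM in hippocampus and 22.2 CPM in neocortex and a log2 fold change of 0.87 ± 0.23 (adjusted p 0.0458). PLXNA4, a semaphorin coreceptor, had medians of 24.5 CPM in hippocampus and 11.7 CPM in neocortex and a log2 fold change of 0.99 ± 0.27 (adjusted p 0.0471). Both calls stood near the threshold and were lost without goat 6, 54 or 73, and that of EPHA4 also without goat 64. With lncRNA features left out, no member of either list was called higher over 4 goats.

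Among general markers of neurons the defining transporter and enzyme were not called. SLC17A7, the vesicular glutamate transporter of cortical excitatory neurons, had medians of 13.1 CPM in hippocampus and 11.2 CPM in neocortex and a log2 fold change of 0.32 ± 0.38 over 4 goats (adjusted p 0.830). It was 0 in the hippocampus of goat 3 and 0.217 CPM in the neocortex of goat 2. GAD1, the GABA-synthesising enzyme, had medians of 3.69 CPM in hippocampus and 12.6 CPM in neocortex and a log2 fold change of -1.09 ± 0.56 over 4 goats (adjusted p 0.442). SNAP25, chosen after its values were seen, fell over 4 goats (log2 fold change -0.89 ± 0.19, adjusted p 0.0108), at 68.8 to 104 CPM in hippocampus and 76.1 to 237 CPM in neocortex, with the ranges overlapping and the call lost without goat 6, 54 or 73. Of 7 inhibitory neuron markers tested over 4 goats 6 lay below 0, with a median of -0.43 and no call.

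Among glial genes GFAP alone was called. GFAP, the intermediate filament of astrocytes, ran from 100 to 217 CPM in hippocampus (median 124) and from 1.3 to 84.9 CPM in neocortex (median 37.9). The tissues did not overlap over the 12 libraries, as was so for 1.56% of all features with hippocampus higher. The fitted log2 fold change was 1.62 ± 0.22 over 4 goats (adjusted p 0.000117) and 1.88 ± 0.66 over 6 (adjusted p 0.311). The other 11 astrocyte markers tested over 4 goats were not called, the list median was -0.08, and the summed astrocyte level overlapped, at 305 to 525 CPM in hippocampus and 34.2 to 617 CPM in neocortex. GFAP overlaps LOC106503269, an unnamed coding gene, in the RefSeq annotation. LOC106503269, chosen after its values were seen, had 1178 to 3919 CPM in hippocampus and 355 to 1100 CPM in neocortex (log2 fold change 1.29 ± 0.12 over 4 goats, adjusted p 6.80e-07), and reads of the 2 genes cannot be told apart with certainty.

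All 14 oligodendrocyte and myelin genes tested lay above 0 in both fits, and none was called. Their median was 1.51 over 6 goats and 0.98 over 4 goats. Of all features, 8872 of 17229 lay above 0 over 6 goats and 8832 of 17944 over 4 goats. Over 4 goats, 3 of the myelin genes were called higher with the library total only and 1 without lncRNA features. MBP (myelin basic protein) ran from 58.3 to 592 CPM in hippocampus (median 146) and from 4.12 to 61.8 CPM in neocortex (median 41.9), with a log2 fold change of 0.93 ± 0.30 over 4 goats (adjusted p 0.113). The highest MBP value was in the hippocampus of goat 3 and the lowest in the neocortex of goat 2. MAG, a glycoprotein of the myelin sheath chosen after its values were seen, had a log2 fold change of 1.48 ± 0.48 over 4 goats (adjusted p 0.125). Summed myelin levels over these 4 goats were 192 to 706 CPM in hippocampus and 120 to 199 CPM in neocortex, and they overlapped. Oligodendrocyte precursor sums were 88.6 to 109 CPM in hippocampus and 46.5 to 76.6 CPM in neocortex over 4 goats, without overlap, and no member was called.

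The share of white matter or of other cells in each piece was not tested. Choroid plexus sums were 40.5 to 106 CPM in hippocampus and 26.5 to 51.1 CPM in neocortex, and TTR, the defining choroid plexus transcript, was at most 10.5 CPM in hippocampus apart from 33.3 CPM in goat 3 and at most 3.25 CPM in neocortex. Microglial sums were 48.8 to 66.1 CPM in hippocampus and 38.0 to 57.1 CPM in neocortex. Sums for meningeal fibroblasts, for ependyma and for endothelium with pericytes also overlapped. No tested microglial, vascular, meningeal, choroid or ependymal marker was called in either fit. Over 4 goats, 4 of 11 microglial, 9 of 10 vascular, 4 of 8 meningeal, 3 of 10 choroid and 5 of 11 ependymal markers were tested. Over 6 goats these were 4, 7, 4, 2 and 3. TTR was tested in neither fit.

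**Figure D3:**
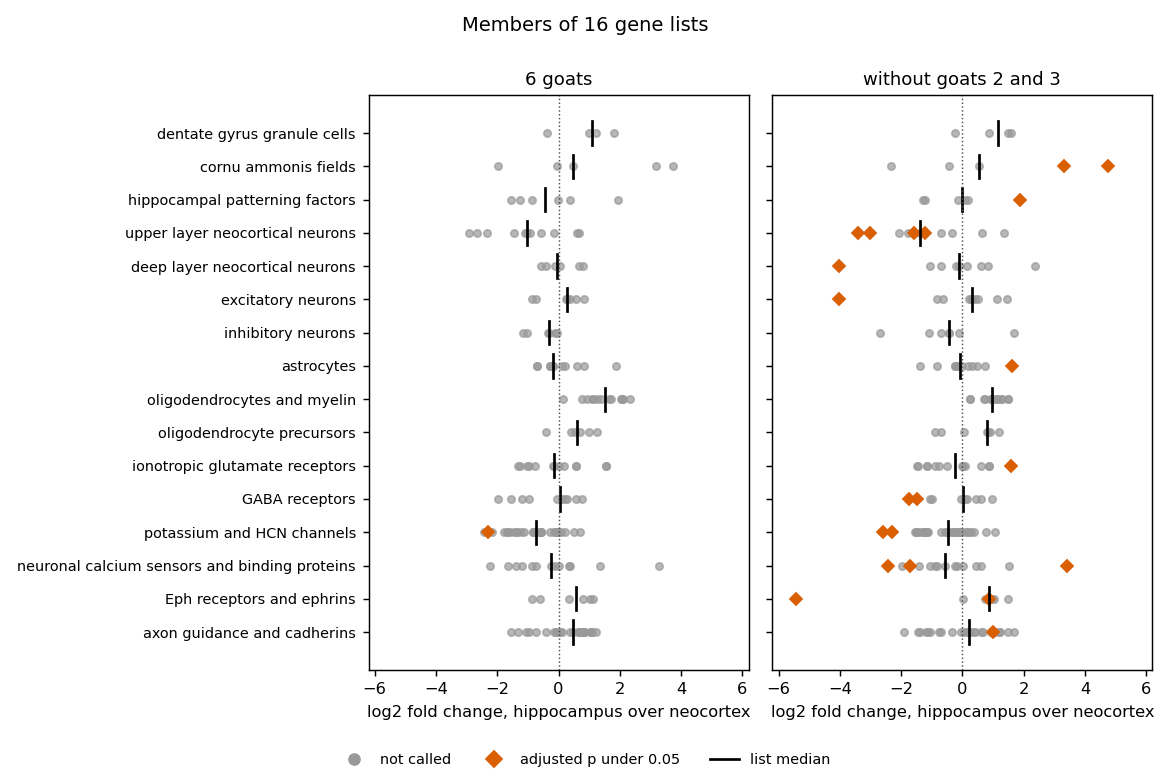
Log2 fold changes of hippocampus over frontal neocortex for the tested members of 16 gene lists, over 6 goats (left) and without goats 2 and 3 (right). Grey points are members not called, orange diamonds are calls, and black lines are list medians. The myelin list lies wholly above 0 and the upper layer list mostly below 0 in both panels, while calls are nearly all in the right panel.

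In all, 37 gene lists were laid over the results, and 34 had a tested member. Over 6 goats 0 of 281 distinct members were called higher and 2 (0.712%) lower, near the background of 0.226 and 0.842%. Over 4 goats 8 of 307 were higher (2.61%) and 15 lower (4.89%), against 1.33 and 1.93% of all features. The lists were chosen with earlier results of these data known, and goats 2 and 3 were left out after list sums were seen. These shares are therefore descriptive only. The 19 lists with no called member over 4 goats had medians from -1.08 to 1.17. They include the dentate granule cell list, with 4 tested members and a median of 1.17, the Wnt pathway list, with 14 tested and a median of 0.42, and corticosteroid receptors with their responsive genes, with 11 tested and a median of 0.018.

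The coding genes with the largest fold changes among the calls over 6 goats were on none of the cell type lists. WDSUB1 (a protein with WD repeats and a U-box domain), CCDC103 (a dynein arm factor of motile cilia), SUSD2 (a sushi domain membrane protein), APPL1 (an adaptor of endosomes and adiponectin signalling), ADAM33 (a membrane metalloprotease), CEBPD (a transcription factor of the acute phase) and SLC7A4 (an orphan member of the cationic amino acid transporters) rose. TRPV6 (an epithelial calcium channel), JMY (an actin nucleator and p53 cofactor), ADGB (androglobin), STAM2 (an endosomal sorting protein), IL13 (a cytokine), IFT27 (an intraflagellar transport protein) and CNIH3 (an AMPA receptor auxiliary protein) fell. The naming rule required the same direction in all 6 goats, so that agreement is no result. Naming by the largest fold change among calls also favours tissues that do not overlap. Of all features tested over 6 goats, 1.56% did not overlap with hippocampus higher and 0.958% with it lower.

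WDSUB1 ran from 37.3 to 59.3 CPM in hippocampus (median 55.2) and from 5.33 to 12.3 CPM in neocortex (median 9.96). The 2 tissues did not overlap, though the same direction in every goat was a condition for naming it. Its log2 fold change was 2.29 ± 0.23 over 6 goats (adjusted p 0.000716) and 2.31 ± 0.23 over 4. CCDC103 ran from 4.08 to 193 CPM in hippocampus (median 15.8) and from 0.157 to 3.47 CPM in neocortex (median 0.824), with a log2 fold change of 4.32 ± 0.44 (adjusted p 0.00076). SUSD2 ran from 6.99 to 289 CPM in hippocampus (median 26.4) and from 0 to 3.25 CPM in neocortex (median 0.513), with a log2 fold change of 5.50 ± 0.84 (adjusted p 0.00853). The highest hippocampus value of both CCDC103 and SUSD2 was that of goat 2, and the SUSD2 call was lost without goat 54 or 64.

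APPL1 ran from 25.8 to 149 CPM in hippocampus (median 70.0) and from 8.88 to 23.4 CPM in neocortex (median 14.6), with a log2 fold change of 1.91 ± 0.35 (adjusted p 0.0289), and its call was lost without goat 6, 54 or 64. ADAM33 ran from 18.3 to 49.8 CPM in hippocampus (median 44.3) and from 4.0 to 15.7 CPM in neocortex (median 8.25), with a log2 fold change of 1.99 ± 0.31 (adjusted p 0.0096), and its call was lost without goat 6 or 73. SLC7A4 ran from 89.8 to 157 CPM in hippocampus (median 120) and from 12.1 to 78.0 CPM in neocortex (median 38.1), with a log2 fold change of 1.57 ± 0.29 (adjusted p 0.03), lost without goat 2, 6, 54 or 64. For all 3 genes the lowest hippocampus lay above the highest neocortex, as was so for 1.56% of all features tested. CEBPD, MARCKSL1 (a substrate of protein kinase C), VWA7, FSIP2, SLC35A4 and LOC108635997 complete the 12 named, with log2 fold changes from 1.83 to 5.89, and the calls of CEBPD, MARCKSL1, VWA7 and SLC35A4 were lost when any of 3 or more single goats was left out.

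TRPV6 ran from 4.08 to 11.2 CPM in hippocampus (median 6.93) and from 39.0 to 122 CPM in neocortex (median 74.1), with a log2 fold change of -3.68 ± 0.32 (adjusted p 0.000356). JMY ran from 30.7 to 81.8 CPM in hippocampus (median 45.4) and from 77.2 to 558 CPM in neocortex (median 365), with a log2 fold change of -2.77 ± 0.25 (adjusted p 0.000356). ADGB ran from 0.764 to 6.75 CPM in hippocampus (median 3.83) and from 26.8 to 62.8 CPM in neocortex (median 35.0), with a log2 fold change of -3.69 ± 0.37 (adjusted p 0.000686). The highest ADGB value, 62.8 CPM, was in the neocortex of goat 2. For TRPV6 and ADGB the tissues did not overlap, as was so for 0.958% of all features with hippocampus lower. For JMY the neocortex of goat 3 alone lay within the hippocampus range.

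STAM2 had 0.702 to 6.11 CPM in hippocampus and 14.2 to 21.1 CPM in neocortex, IL13 had 1.61 to 8.26 CPM in hippocampus and 11.9 to 29.5 CPM in neocortex, and IFT27 had 1.15 to 7.94 CPM in hippocampus and 11.4 to 42.1 CPM in neocortex. None of these ranges overlapped, as was so for 0.958% of all features with hippocampus lower. CNIH3 had 0 to 1.93 CPM in hippocampus and 4.55 to 11 CPM in neocortex, and a log2 fold change of -3.10 ± 0.60 (adjusted p 0.0367), lost without goat 6, 54, 64 or 73. LOC102175896 and LOC108637965, coding genes without a name, had log2 fold changes of -6.66 ± 0.72 (adjusted p 0.00102) and -3.77 ± 0.34 (adjusted p 0.000356). LOC102175896 was detected in 1 of 6 hippocampus libraries. ADIPOQ, the adipocyte hormone adiponectin, had at most 1.08 CPM in hippocampus and 2.23 to 4.71 CPM in neocortex (adjusted p 0.042), and its call was kept when goat 3 was left out and lost without any other single goat. FCHSD1, whose call was lost without goat 6, 54, 64 or 73, and LOC108637776 complete the 12 named lower.

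**Figure D4:**
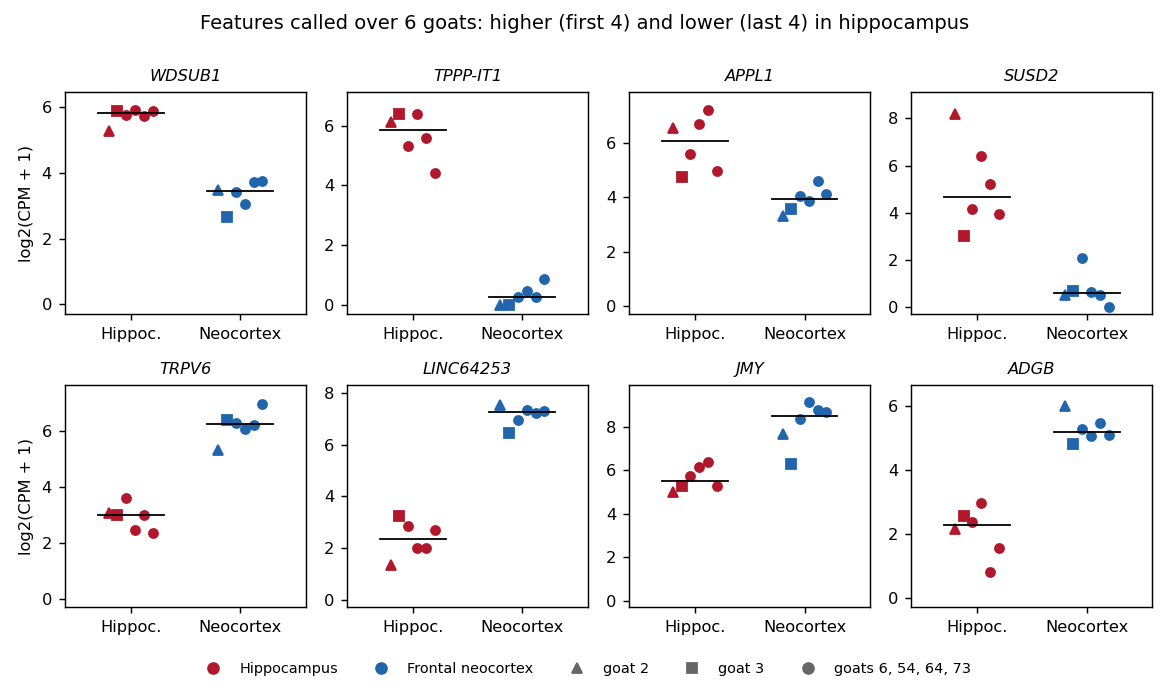
Level of 8 features called over 6 goats in each library as log2(CPM + 1), with hippocampus in red at the left and frontal neocortex in blue at the right of each panel, a line at the median, triangles for goat 2 and squares for goat 3. WDSUB1, TPPP-IT1, APPL1 and SUSD2 lie higher in all hippocampus libraries, TRPV6, LINC64253 and ADGB lie lower in all of them, and for JMY the neocortex of goat 3 touches the hippocampus range.

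Calls often fell on neighbouring genes. Of 55 called coding genes with a placed position over 6 goats, 10 (18.2%) had a called coding gene next to them in the RefSeq order, all 10 with the same direction, against 56 of 8372 uncalled genes (0.669%). Over 4 goats these were 32 of 194 (16.5%), 30 of them with the same direction, against 186 of 8750 (2.13%). The pairs, named after their values were seen, include HOMER1 with JMY (log2 fold changes -1.67 and -2.77 over 6 goats), SCN7A with the sodium channel gene SCN9A (-2.15 and -1.76), ESAM with VSIG2 (-2.27 and -2.25) and CHI3L1 with MYBPH (0.88 and 0.90). Over 4 goats EPHB6 stood beside TRPV6 (-5.42 and -3.92), HPCA beside TMEM54 (3.40 and 3.0), and CCDC103 beside LOC106503269 and so beside GFAP. HPCA and TMEM54 overlap in the annotation. Of the 77 genes checked for outlying libraries, 15 overlap another RefSeq gene.

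The lncRNA calls were more numerous than the coding ones. Over 6 goats 23 of 7699 lncRNAs tested were higher and 98 lower, against 16 and 43 of 8646 coding genes. Over 4 goats 147 of 7826 lncRNAs were higher and 223 lower, against 90 and 113 of 9177 coding genes. Of all features, 1.07% were called over 6 goats and 3.26% over 4 goats. LncRNAs took most of the counts in every library, and the part of count level in the number of calls was not tested. TPPP-IT1, an intronic lncRNA that spans 9794 bases of the TPPP locus, ran from 20.2 to 82.8 CPM in hippocampus (median 58.1) and from 0 to 0.821 CPM in neocortex (median 0.215). The difference on the log2 scale was 7.25 ± 0.60 over 6 goats (adjusted p 0.000233). IRGQ-OT1, which overlaps the IRGQ locus, had 3.22 to 44.6 CPM in hippocampus and 0 to 2.51 CPM in neocortex, with a log2 fold change of 4.86 ± 0.83 (adjusted p 0.0173), lost without goat 6, 54 or 73. Neither lncRNA overlapped between the tissues, as was so for 1.56% of all features with hippocampus higher. MIR424-AS1, APPL1-OT1 and FOXO6-AS1 complete the 5 named higher, at log2 fold changes of 2.81, 2.36 and 2.32, and MIR424-AS1 was not called over 4 goats (adjusted p 0.0695) and lost its call over 6 goats without goat 6, 54, 64 or 73.

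LINC64253, an intergenic lncRNA with a span of 3944 bases, ran from 1.54 to 8.60 CPM in hippocampus (median 4.32) and from 87.2 to 184 CPM in neocortex (median 154), with a log2 fold change of -5.17 ± 0.37 (adjusted p 0.000115). LINC64251, with a span of 3849 bases, lies 7745 bases from it on the same strand, in the deposited annotation. LINC64251 was not detected in any hippocampus library and ran from 11.5 to 28.2 CPM in neocortex (median 24.3), so it was at least 99.7-fold lower in hippocampus, against a floor of 3 counts over that group (adjusted p 0.00406). The highest LINC64253 value, 184 CPM, was in the neocortex of goat 2. MAB21L1-AS1, antisense to MAB21L1, had at most 0.764 CPM in hippocampus and 6.82 to 17.3 CPM in neocortex, with a log2 fold change of -6.0 ± 0.70 (adjusted p 0.00175). LINC21033, an intergenic lncRNA, had a log2 fold change of -4.96. Antisense and overlapping lncRNAs share their locus with a coding gene, and the sources used here do not say whether strand entered the counting.

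Goats 2 and 3 played no part in the fit over 4 goats, and their direction is given here beside its calls. Each holds 1 library that stood apart, so they are no independent check of those calls. The share of all tested features with the same direction was not counted. Goat 2 had the same direction for 203 of 238 higher calls (85.3%) and for 304 of 347 lower calls (87.6%). Goat 3 had it for 125 (52.5%) and 320 (92.2%). Among the lower calls, goat 2 shared the direction of 218 of 223 lncRNAs (97.8%) and of 75 of 113 coding genes (66.4%). Of the higher coding calls, goat 2 shared 84 of 90 (93.3%) and goat 3 shared 51 of 90 (56.7%).

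Levels in the other brain tissues are set beside these differences, with all 6 goats in each mean. The calls were selected on the hippocampus and neocortex libraries, which favours these tissues as the highest or lowest. The shares over all features tested were not counted, so the counts below are descriptive only. Of the 39 features called higher over 6 goats, hippocampus was the highest of 8 brain tissues for 25, and neocortex was the lowest for 22. Of the 145 called lower, hippocampus was the lowest of 8 for 41 and neocortex the highest for 89, and for 52 of them neocortex was the highest of all 33 tissues. HPCA averaged 14.8 CPM in hippocampus and 1.40 CPM in neocortex, and at most 1.18 CPM in the other 6 brain tissues. CPNE7 averaged 17.6 CPM in hippocampus and 1.69 CPM in neocortex, with 8.45 CPM in hypothalamus next. JMY averaged 51.8 CPM in hippocampus and 334 CPM in neocortex, against at most 72.2 CPM elsewhere in the brain. TPPP-IT1 averaged 56.7 CPM in hippocampus and 0.272 CPM in neocortex, and its level in rhinencephalon, 58.4 CPM, lay beside that of hippocampus.

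GFAP and MBP had another order. GFAP averaged 136 CPM in hippocampus and 38.8 CPM in neocortex, but 451 CPM in medulla oblongata and 411 CPM in the bridge of the brainstem. MBP averaged 207 CPM in hippocampus and 38.0 CPM in neocortex, with 444 CPM in the bridge. TRPV6 averaged 6.83 CPM in hippocampus and 76.0 CPM in neocortex, and thyroid had the highest mean of all 33 tissues, 85.4 CPM.

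**Figure D5:**
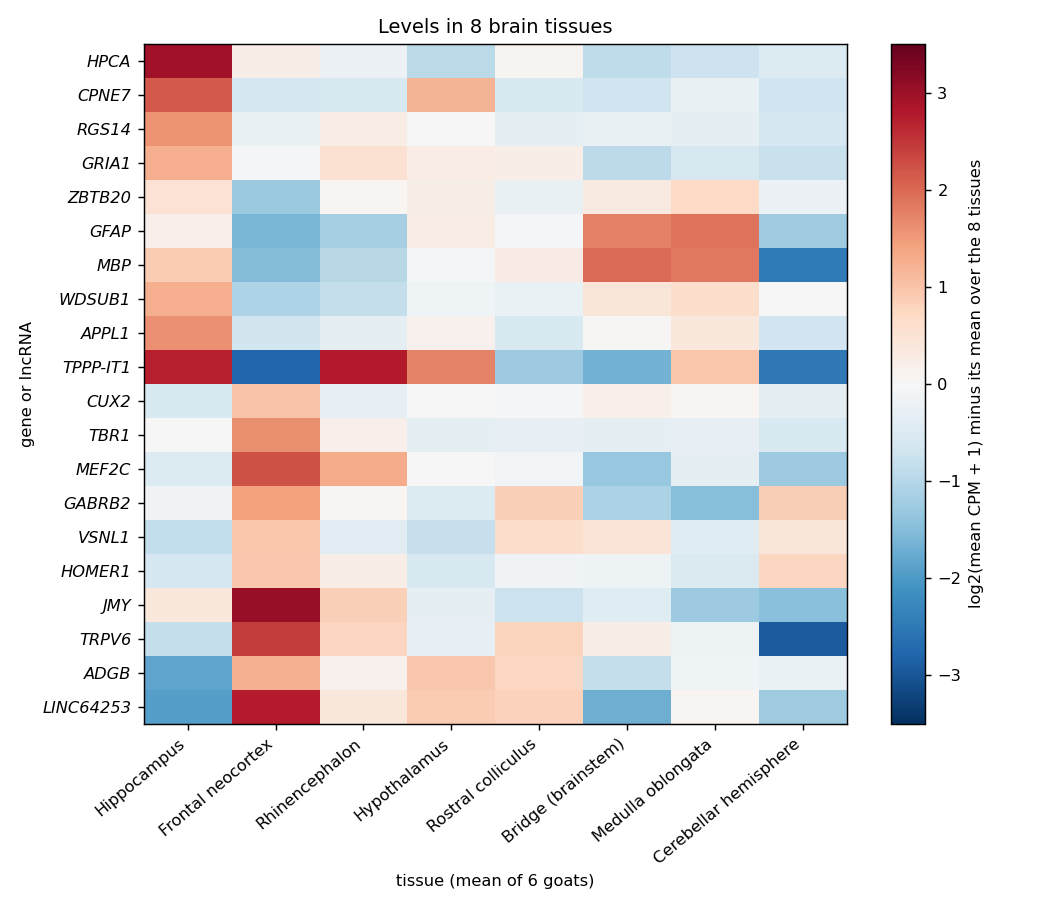
Level of 20 features in 8 brain tissues, shown as log2(mean CPM + 1) over 6 goats minus the mean of the 8 tissues. HPCA, CPNE7 and RGS14 peak in hippocampus (leftmost column), GFAP and MBP peak in the brainstem tissues, and JMY, TRPV6, MEF2C and LINC64253 peak in frontal neocortex.

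The region difference was also compared between lactating and dry goats, by the interaction of tissue with state over 3 goats each. In edgeR 0 of 17229 features were called, 164 had an unadjusted p under 0.05, DESeq2 called 1 feature, and edgeR without a filter on low counts called 6. The 5 features with the smallest p were DCUN1D3-AS1, LOC102172205-OT1, TRNAG-CCC_58, LOC108635079 and ST18, and each had an adjusted p of 1. DCUN1D3-AS1 had 0 to 2.69 CPM in the hippocampus of lactating goats and 27.5 to 39.0 CPM in that of dry goats, and in neocortex 0.203 to 27.1 CPM in lactating and 8.62 to 26.1 CPM in dry goats. ST18, a zinc finger factor of oligodendrocytes, had an interaction of 5.29 on the log2 scale and an unadjusted p of 0.00542 in the model. Goats 2 and 3, which hold the 2 libraries that stood apart, are both lactating, so library identity and state cannot be told apart in this comparison.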

How the data were processed

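RNA-seq libraries of 33 tissues from 6 goats were deposited, and 12 of 198 were used. The authors deposited expected counts per feature and library for 39734 features, of which 36.9% of values above 0 have a fractional part, and these were rounded to whole numbers. STAR, StringTie and edgeR are named, without versions, per the submitters' processing notes. The genome build and the use of strand in counting are not given in the sources used here, and the kit was strand-specific per the labels. The authors also deposited natural log offsets per feature and library, used as an alternative scaling, and an lncRNA annotation with other values such as positions, used to sort 14511 features as lncRNAs. RefSeq (ARS1.2) symbols matched 23489 features and gave gene order and overlaps only. CPM is the rounded count over the library total.

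Tests were edgeR 4.0.16 quasi-likelihood F-tests in R 4.3.3 with the goat as a block, TMM scaling, filterByExpr with a minimum count of 10 and Benjamini-Hochberg adjusted p under 0.05 over all features. SEs were taken as the absolute log2 fold change divided by the square root of the F statistic. The script was tested on simulated data. The goat numbers pair the libraries because both come from the same animal. The correlation of same-goat deviations ran from -0.264 to 0.281, and 2 of 6 goats matched themselves best. Alternatives were DESeq2 1.42.0, limma 3.58.1 (voom), other scalings and filters, thinned counts, no block, 8 brain tissues in 1 fit, each state alone and each goat left out. The fit without goats 2 and 3 was added after the data were seen. Fold bounds use a floor of 3 counts over the group.

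Genes named were the 12 features outside the lncRNA annotation and the 5 lncRNAs per direction with the largest fold change among calls with the same direction in every goat and a mean of at least 3 CPM, up to 4 called members per list and direction, a set of anchor genes, and the 5 smallest p by state. A few results that the rule would name are not reported here. Others are said to be chosen after their values were seen. The members and the 37 lists were chosen with earlier results of these data known.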

Additional observations from a re-analysis of the deposited data

Results flagged for a closer look

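Levels of 77 genes were checked in each tissue, 154 groups of 6 libraries in all, for a library far from the other 5 on the log2(CPM + 1) scale (Dixon's ratio above its 95% critical value). Chance gives about 1 in 20 groups, and 32 were found. The genes were no neutral sample, since many were named from calls without goats 2 and 3 or after their values were seen. Genes of 1 library are also not independent, so the excess is no test. The high values of EPHB6 and LOC102175896 given below lay under the floor of 3 counts in their libraries. The hippocampus of goat 3 gave 13 and the neocortex of goat 2 gave 11.

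The hippocampus of goat 3 was low for CPNE6 (0.538 CPM), ZBTB20 (5.38), GRIA1 (7.53), NPTX1 (3.76), EPHA4 (2.69), PLXNA4 (0), VSNL1 (3.23), SLC17A7 (0), SNAP25 (6.45), FCHSD1 (0.538), TMEM54 (2.15) and ZMAT5 (1.61 CPM). It was high for LOC102175896 (1.08 CPM). For GRIA1 the median of the other 5 hippocampus libraries was 63.9 CPM and for SNAP25 it was 86.3 CPM.

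The neocortex of goat 2 was low for ZBTB20 (0 CPM), GRIA1 (0), NPTX1 (1.3), EPHA4 (0), PLXNA4 (0.433), CUX2 (1.73), MEF2C (4.98), CAMK4 (7.8), KCNJ4 (0.433), SNAP25 (2.6) and MBP (4.12 CPM). The other 5 neocortex libraries had medians of 207 CPM for SNAP25 and 44.2 CPM for MBP.

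Of the remaining libraries, the hippocampus of goat 2 was high for GFAP (217 CPM) and low for WDSUB1 (37.3 CPM). The hippocampus of goat 6 was low for RASGRF2 (4.21 CPM), and that of goat 73 was high for EPHB6 (0.214 CPM). The neocortex of goat 3 was high for RGS14 (2.51 CPM) and low for LINC64251 (11.5 CPM). The neocortex of goat 6 was high for SUSD2 (3.25 CPM) and low for DCUN1D3-AS1 (0.203 CPM).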

How the results depend on the processing

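The counts of calls depended on the processing. Of the log2 fold changes tested under the alternatives, those of WFS1 and SLC17A7, neither called, changed sign over 6 goats: WFS1 was 0.019 with thinned counts, 0.048 in dry goats, 0.16 with the library total only and -0.26 to 0.29 with 1 goat left out, against -0.05, and SLC17A7 was -0.11 with 8 brain tissues, -0.12 with no replicate block and -0.39 to 0.96 with 1 goat left out, against 0.26. Against 39 higher and 145 lower features over 6 goats, there were 186 and 324 with DESeq2, 113 and 233 with limma-voom, 204 and 446 with no filter on low counts, 7 and 27 without lncRNA features, 652 and 784 with 8 brain tissues in 1 fit, and 61 and 100 with the library total only. Dry goats alone gave 148 and 225, and lactating goats alone 0 and 0. With no replicate block, ignoring the pairing by goat, there were 118 and 270. Leaving out 1 goat gave 10 to 128 higher and 72 to 234 lower, with the most without goat 3, and leaving out goats 2 and 3 gave 238 and 347. Without those goats, the library total only gave 366 and 257, lncRNA features left out 75 and 129, no replicate block 206 and 322, and leaving out 1 further goat 148 to 220 higher and 205 to 382 lower. By state, DESeq2 called 1 feature and no filter 6, against 0. The causes were not tested. Over named genes, 1266 values over 6 goats kept their direction and side of the threshold, 8 changed sign, 212 gained a call and 116 lost one. With the deposited offsets the calls of ADIPOQ, IRGQ-OT1, MIR424-AS1 and VWA7 over 6 goats were lost, and those of ADIPOQ, HOMER1 and KCNF1 with the library total only. Without goats 2 and 3, 738 kept it and 82 lost one. GRIK4 and FEZF2 were scarce in both tissues and stayed below the filter.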
